A study of Rattus norvegicus with 12 samples.

Results

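The genes described here are 8 members of the growth signaling route through Akt and mTOR, namely Pik3ca, Akt1, Akt2, Tsc1, Tsc2, Mtor, Rptor and Rictor. They were taken by symbol from the deposited expression table, which lists 32545 genes, and each symbol was found once. The values are FPKM, that is, fragments scaled to gene length and library size. All 8 averaged 0.5 FPKM or more across the 12 libraries, the filter on low values, which 13910 genes passed.

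The study set the left ventricle (LV) beside the right ventricle (RV) of newborn rats under volume overload (VO). Sprague–Dawley rats received a needle fistula between the abdominal aorta and the inferior vena cava, which makes VO, or a sham operation at postnatal day 1. The free walls of both ventricles were taken at postnatal day 7, and each ventricle of each treatment gave 3 libraries, so that the 4 groups are VO LV and VO RV with their sham counterparts. Sex is not given in the sources used here. The sources also do not say whether the LV and RV libraries of 1 number came from 1 rat, or whether a library pooled rats, so the p values measure the spread between these libraries.

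In heart muscle, as in other cells, insulin, insulin-like growth factor and neuregulin receptors recruit phosphatidylinositol 3-kinase, whose product brings Akt to the membrane. Akt restrains the TSC complex, and this lets the small GTPase Rheb switch on mTOR. mTOR works in 1 complex with raptor (mTORC1), which drives protein synthesis and holds back autophagy, and in another with rictor (mTORC2), which itself phosphorylates Akt. The route is known for setting the size of cardiomyocytes during postnatal growth and load. Of the 8 genes, Pik3ca, Akt1, Akt2 and Mtor encode kinases, Tsc1 and Tsc2 the inhibitory TSC complex, and Rptor and Rictor the scaffold subunits that define the complexes. The libraries report the RNA of these genes and not the phosphorylation by which the route is switched.

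The members lie apart in the genome and differ in length. The deposited table, whose genome build is not given in the sources used here, places Akt2 (ENSRNOG00000018677) on the + strand of chromosome 1 from 84411726 to 84450162, with a gene length of 1984 bases. Mtor (ENSRNOG00000009615) spans 165263800 to 165373967 on the + strand of chromosome 5 and counts 8680 bases. Rptor (ENSRNOG00000003821) spans 108750620 to 109058691 on the + strand of chromosome 10 and counts 6699 bases. Akt1 lies on chromosome 6, Tsc1 on chromosome 3, Tsc2 on chromosome 10, and Pik3ca and Rictor on chromosome 2. The locus of Mtor holds Angptl7 on the opposite strand (at most 0.532 FPKM) and a U6 gene, and Tsc2 shares 62 bases with Pkd1 on the opposite strand (8.56 to 12.5 FPKM). The sources used here give no strand setting for the counting, so reads in these shared stretches cannot be told apart.

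Promoters of Akt2 and Mtor are shown because these genes lead the results below together with Rptor. RefSeq sequences on the GRCr8 build, 250 bases before to 50 after each gene's start, matched 7 of the 8 members, all but Rptor. The stretch before the start is printed 5′ to 3′ on the gene's strand. Capitals mark the matches on either strand to 6 motifs, which were the GC box GGGCGG, the CCAAT box CCAAT, the TATA box TATAAA, the E-box CACGTG, the cAMP response element TGACGTCA and the forkhead motif GTAAACA.
Akt2, chr1:92021667-92021916, + strand: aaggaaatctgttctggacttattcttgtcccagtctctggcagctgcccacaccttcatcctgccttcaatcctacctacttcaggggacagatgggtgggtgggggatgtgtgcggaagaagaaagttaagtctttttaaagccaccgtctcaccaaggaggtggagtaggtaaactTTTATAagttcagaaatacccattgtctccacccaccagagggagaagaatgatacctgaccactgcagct
Mtor, chr5:164167735-164167984, + strand: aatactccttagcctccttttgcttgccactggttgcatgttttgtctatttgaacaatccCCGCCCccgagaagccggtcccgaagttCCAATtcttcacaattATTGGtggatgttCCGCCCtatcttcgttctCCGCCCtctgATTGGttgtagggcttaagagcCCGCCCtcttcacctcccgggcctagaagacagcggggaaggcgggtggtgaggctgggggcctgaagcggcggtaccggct

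The Akt2 window held a single match, to TATAAA on the reverse strand. The Mtor window held 4 matches to GGGCGG and 3 to CCAAT, 2 of the latter on the reverse strand. Over the whole 300 bases Akt2 had a GC content of 49.7% with 3 CpG, and Mtor had 60.0% with 21 CpG, against medians of 51.7% and 7 over 33469 promoters. GGGCGG was present in 33.1% of all promoters, CCAAT in 37.5%, TATAAA in 14.2%, CACGTG in 6.42%, TGACGTCA in 1.83% and GTAAACA in 3.78%. Among the other matched members Rictor held 4 GC boxes and Tsc2 held 1, Pik3ca and Tsc1 held 1 forkhead match each, and Akt1 held none of the 6. No motif of this set occurred in the windows of both Akt2 and Mtor. The windows rest on annotated starts, which were not checked against where transcription begins in these libraries.

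Genes received 14121713 to 16871371 reads in a library. The members had 199 (Rictor in VO RV replicate 1) to 7540 reads (Akt1 in VO LV replicate 3) per library, so counting error alone is at most 7.09% of a member's value. Ventricular muscle markers were high in every library, and Myh6 was never below 1544 FPKM. RV libraries were not alike: the summed atrial markers (6 of 6 in the table) were 1081 FPKM in sham RV replicate 1 and 4576 in VO RV replicate 2, against 225 to 322 in the other 4 RV libraries. Y-linked transcripts (5 of 5 in the table) summed to at most 0.351 FPKM in all 3 VO LV libraries, but to 56.1 FPKM or more in 2 of 3 sham LV, 2 of 3 sham RV and 1 of 3 VO RV libraries. In each library, the median log2 deviation from the gene's own mean was taken over 1413 long genes and over 2386 short genes. The long value minus the short value ran from −0.24 to −0.13 in sham LV and from −0.03 to 0.12 in VO LV. In the RV it ran from −0.03 to 0.27 (sham) and from −0.16 to 0.17 (VO). In bulk tissue, fewer cells of a type and less RNA per cell cannot be told apart.

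The members spanned a wide range of levels. Akt1, the broadly expressed Akt gene tied to growth, was the most abundant with a mean of 170 FPKM over the 12 libraries, above 97.1% of tested genes. Akt2, the Akt gene best known for insulin-driven glucose uptake, followed with 57.8 FPKM, and in no library did it reach the lowest value of Akt1. Then came Pik3ca (11.2 FPKM), Tsc2 (10.7), Mtor (7.59), Rptor (7.34), Tsc1 (4.48) and Rictor (3.33). Pik3ca and Tsc2 did not part, since Pik3ca was the higher in 7 of 12 libraries, and the same held for Mtor and Rptor. Tsc2 exceeded Mtor, and Tsc1 exceeded Rictor, in 12 of 12 libraries although their ranges overlapped. The variation over the 12 libraries was widest for Akt2, with a coefficient of variation of 22.9%, and was 6.12% for Pik3ca and 6.09% for Tsc2.

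**Figure D1:**
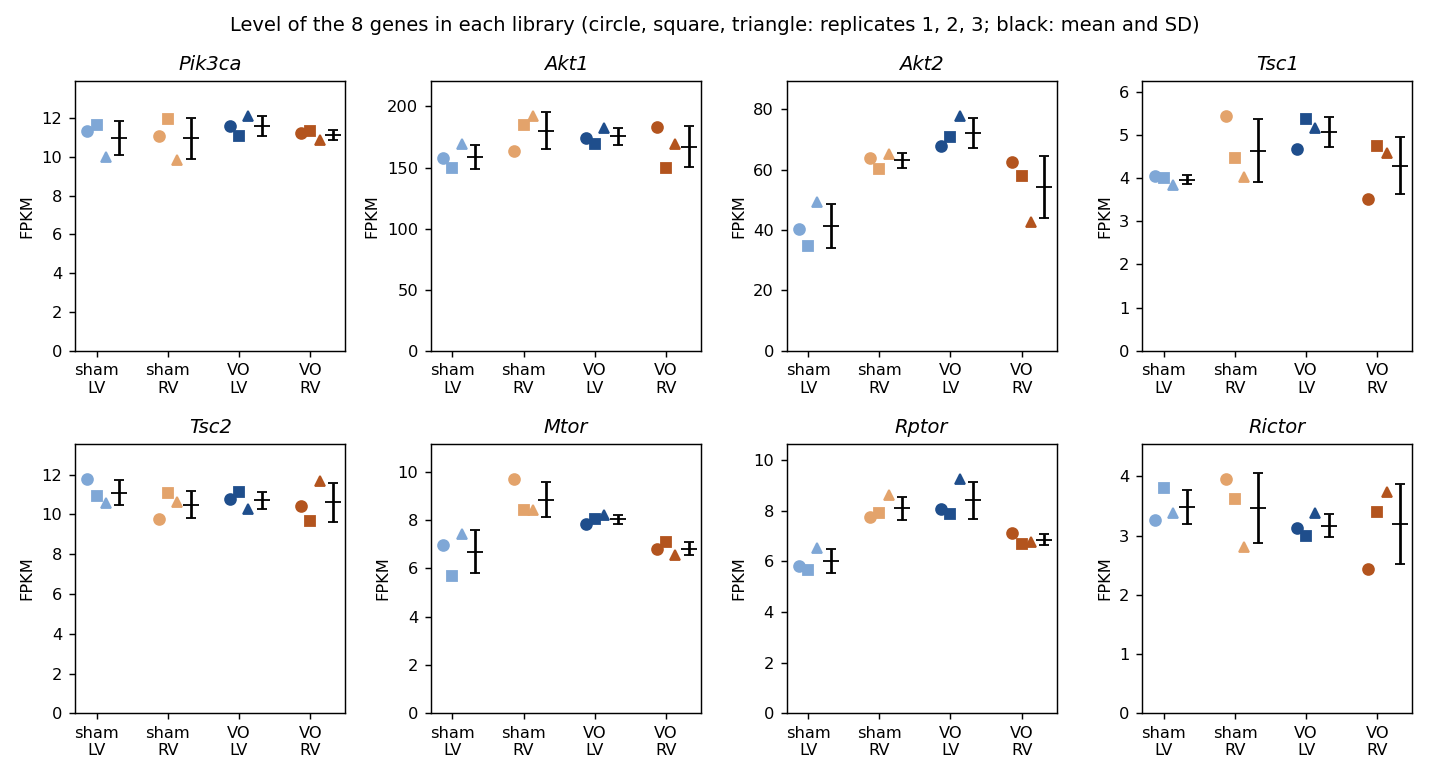
FPKM of the 8 members (vertical axes, linear from 0, 1 panel per gene) by group (horizontal axis); circles, squares and triangles are replicates 1, 2 and 3, and black marks are the mean and SD of the group. Akt2 sits at 34.7 to 49.3 in sham LV and at 67.9 to 77.7 in VO LV, while Pik3ca and Tsc2 overlap between all groups.

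At baseline, the sham LV held less Akt2 and Rptor RNA than the sham RV. Akt2 measured 40.2, 34.7 and 49.3 FPKM in the sham LV libraries and 63.9, 60.4 and 65.2 in the sham RV libraries. The groups were apart, with every LV library below every RV library. The log2 fold change was −0.62 (standard error 0.15, 95% confidence interval −0.95 to −0.29), with an adjusted p of 0.0462 from limma. Rptor, the mTORC1 scaffold that holds its substrates, measured 5.81, 5.67 and 6.54 FPKM in sham LV and 7.76, 7.92 and 8.60 in sham RV. Again no LV library reached an RV library, and the log2 fold change was −0.40 (standard error 0.10) with an adjusted p of 0.0442 from limma.

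These 2 of 8 members were DEGs, defined by an adjusted p under 0.05 with a fold change over 1.3, both lower in the LV, where 3.85% of all tested genes were DEGs and 2.35% were lower ones. That share rests on 536 genes and on single libraries. The number of DEGs over all genes fell to 0 in limma when sham RV replicate 1 was omitted, although 1823 genes then passed the unadjusted p with the fold threshold. It was 1 without sham LV replicate 2, and 3, 4 and 5 without sham LV replicate 1, sham RV replicate 2 and VO LV replicate 2. It was 181 without sham RV replicate 3, 173 when VO LV replicate 1 was omitted and 870 when VO RV replicate 3 was. Mtor, the kinase itself, measured 6.96, 5.69 and 7.40 FPKM in sham LV and 9.70, 8.41 and 8.42 in sham RV. Its groups were also apart, with a log2 fold change of −0.38 and an adjusted p of 0.0626 from limma, which missed the threshold, while voom on the recovered reads called it (−0.41, adjusted p = 0.0441). At an unadjusted p under 0.05 with that fold change, 3 of 8 members were counted, against 17.8% of tested genes. Akt2, Rptor and Mtor were also the members whose groups did not overlap, all with the LV below, against 32.2% of tested genes in either direction and 16.6% with the LV below. The median log2 fold change of the 8 members was −0.19, against 0.01 over all tested genes.

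The other 5 members gave no call. Akt1 averaged 159 ± 9.69 FPKM (SD, n = 3) in the sham LV and 180 ± 14.8 in the sham RV, and the 95% interval of its log2 difference ran from −0.40 to 0.03. For Pik3ca, the catalytic PI3K subunit, the interval ran from −0.20 to 0.21. For Tsc2, the subunit that acts on Rheb, it ran from −0.13 to 0.28, and for its partner Tsc1 from −0.49 to 0.10. For Rictor it was −0.33 to 0.36, so that a difference of the size seen in Akt2 lies outside the intervals of Pik3ca, Akt1, Tsc1, Tsc2 and Rictor.

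Both baseline calls depended on single libraries and settings. The Akt2 call was lost without any one of the sham RV or VO LV libraries, or sham LV replicate 1 or 2, and the Rptor call without any one of the sham RV libraries, sham LV replicate 1 or 2, or VO LV replicate 1 or 2. The highest adjusted p from limma was then 0.154 for Akt2, without sham RV replicate 1, and 0.146 for Rptor, without sham LV replicate 2. Without both RV libraries that were high in atrial markers, Akt2 had a log2 fold change of −0.61 and an adjusted p of 0.139, and Rptor −0.43 and 0.119, from limma. With the trend of each library's values on gene length removed, Rptor moved to −0.29 (adjusted p = 0.120 from limma) and Mtor to −0.24 (0.140), while Akt2, a shorter gene, stayed at −0.62 (0.0469). The part of gene length in the values of Rptor and Mtor was not otherwise tested.

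Endothelial markers (7 of 8 in the table) summed to 511 to 557 FPKM in sham LV and 371 to 394 in sham RV. The fat list summed to 813 to 1100 FPKM in sham LV and 451 to 533 in sham RV, nearly all of it Fabp4, a gene that endothelial cells also express, while Adipoq and Plin1, which define fat cells, were at 0 in 11 of 12 libraries each. Mural (491 to 593 against 417 to 451 FPKM, 7 of 7 in the table), macrophage and leukocyte (123 to 138 against 93.4 to 103, 9 of 9) and neuron and glia markers (13.3 to 16.1 against 8.48 to 13.1, 7 of 7) were also higher in sham LV without overlap. So was the liver list (18.6 to 22.8 against 12.4 to 15.5, 5 of 5), nearly all of it Ttr, with Alb at 0 in 11 of 12 libraries. Lyz2 made up the largest part of the macrophage and leukocyte sum, at 66.2 to 79.4 FPKM in sham LV and 42.7 to 60.4 in sham RV. Ptprc was also higher in sham LV without overlap, Cd163 was lower, and Csf1r, Cd68, Adgre1, C1qa, C1qb and C1qc overlapped. The part of these cells in the baseline differences was not tested.

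**Figure D2:**
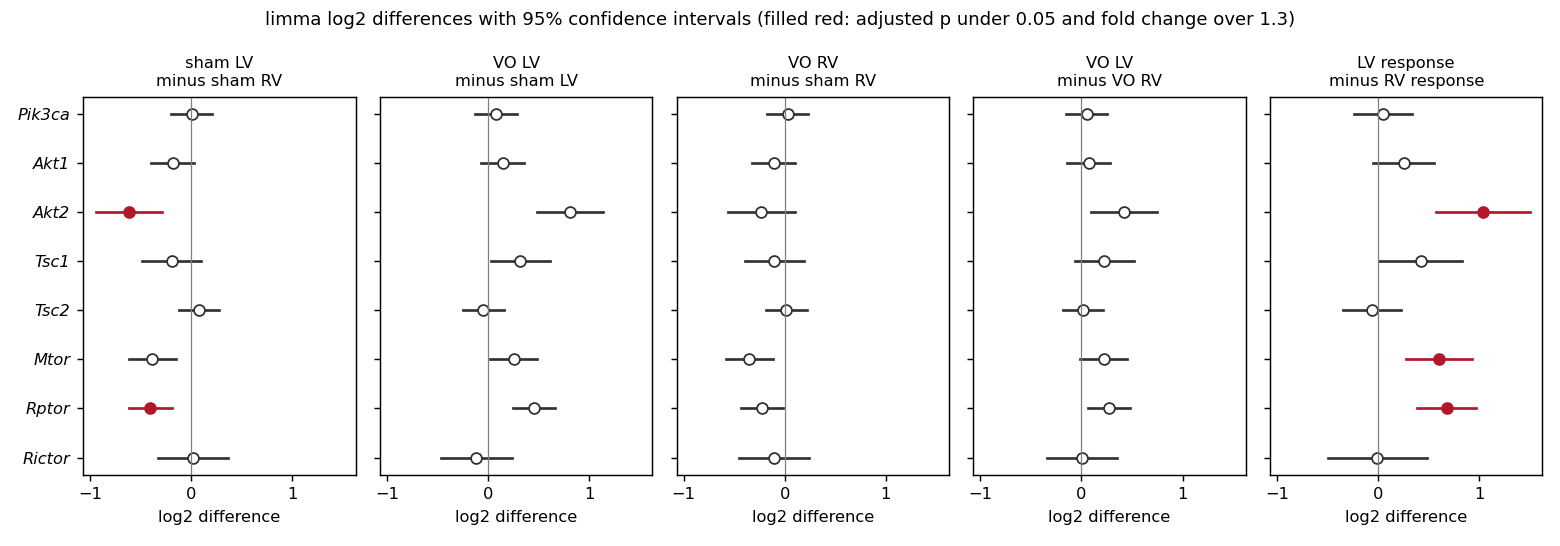
Log2 differences of the 8 members from limma (horizontal axes) with 95% confidence intervals, in 5 panels for the comparisons named above each; filled red points mark an adjusted p under 0.05 with a fold change over 1.3. Akt2 and Rptor are marked between the sham ventricles, and Akt2, Mtor and Rptor in the difference of responses.

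Under VO, the LV libraries stood above sham LV for 5 members, but none was a DEG. Akt2 measured 67.9, 70.8 and 77.7 FPKM in VO LV against 40.2, 34.7 and 49.3 in sham LV, and the groups were well apart. The log2 fold change was 0.81 (standard error 0.15, interval 0.48 to 1.14), a ratio of 1.75, with an adjusted p of 0.0514 from limma. Rptor measured 8.08, 7.89 and 9.25 FPKM in VO LV against at most 6.54 in sham LV. Its log2 fold change was 0.45 (standard error 0.10) with an adjusted p of 0.0534 from limma. Both values lie just above the threshold, in a comparison where 13 genes, 0.0935% of those tested, were DEGs. This number was 0 in limma without sham LV replicate 1 or 2 or any one VO LV library (1364 to 2319 genes at the unadjusted p with the fold threshold), 2 to 5 without any one sham RV library, and 308, 175 and 557 without sham LV replicate 3, VO RV replicate 1 and VO RV replicate 3.

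Mtor measured 7.82, 8.04 and 8.21 FPKM in VO LV, all above sham LV, with a log2 fold change of 0.26 and an adjusted p of 0.179 from limma. The value was 0.15 without sham LV replicate 2 and 0.16 with the gene length trend removed. Tsc1, the subunit that stabilizes the TSC complex, measured 4.67, 5.36 and 5.16 FPKM in VO LV and 4.04, 3.99 and 3.84 in sham LV. Its groups did not overlap, and the log2 fold change was 0.32 with an adjusted p of 0.183 from limma. Akt1 measured 175, 169 and 183 FPKM in VO LV and 158, 150 and 169 in sham LV. Its lowest VO LV library lay only just above the highest sham LV library, and the log2 fold change was 0.15 (adjusted p = 0.376 from limma). For each of these 5 genes the exact permutation test gave p = 0.10, the smallest that 3 libraries against 3 allow. The VO LV libraries were thus above all sham LV libraries for 5 of 8 members, where 32.4% of tested genes did not overlap in either direction and 16.7% had VO LV above.

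Pik3ca, Tsc2 and Rictor overlapped between VO LV and sham LV. Their log2 fold changes were 0.08, −0.05 and −0.11, with intervals of −0.12 to 0.28, −0.25 to 0.16 and −0.46 to 0.23. By the unadjusted p with the fold threshold, 2 of 8 members were counted, Akt2 and Rptor, against 15.7% of tested genes. The median log2 fold change was 0.20 for the 8 members and −0.02 over all tested genes. This comparison shares the sham LV libraries with the baseline comparison, so that low sham LV values enter both.

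Akt2 and Rptor crossed the threshold in the VO LV comparison under several other settings. With array weights their adjusted p values from limma were 0.0208 and 0.0256, with voom on the recovered reads both were 0.0331, and without VO RV replicate 3 they were 0.0153 and 0.0372. They moved the other way without VO LV replicate 3, to 0.249 and 0.253. With the Y-linked level as a covariate, the log2 fold change of Akt2 was 0.60 and that of Rptor 0.38, each with an adjusted p of 0.267 from limma. Of the marker lists, 4 did not overlap between VO LV and sham LV. Endothelial markers summed to 397 to 446 FPKM in VO LV, below sham LV, fibroblast markers (8 of 8 in the table) to 2063 to 2543 against 2594 to 2789, and the fat list to 536 to 673. The skeletal muscle list (6 of 8 in the table) was higher, at 3697 to 4372 FPKM against 2392 to 3658, nearly all of it Acta1 and Ckm, which heart muscle also expresses, while Myod1, which defines skeletal muscle cells, was at 0 in 11 of 12 libraries. The sum of ventricular muscle markers (10 of 11 in the table) overlapped, at 27935 to 30922 against 26673 to 28721 in sham LV. Single genes of this list moved both ways. Myh6 (2041 to 2787 against 1544 to 1706 FPKM), Myh7, Actc1, Atp2a2 and Ryr2 were higher in VO LV without overlap. Tnni3 (2319 to 2927 against 3384 to 3740 FPKM) and Tnnt2 were lower without overlap, and Myl3, Myl2 and Pln overlapped. The part of cell makeup and of the Y-linked difference in these values was not tested.

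In the RV, VO gave no DEG among the members or among all tested genes (0.0%), and 683 genes (4.91%) passed the unadjusted p with the fold threshold in limma, none of them a member. Voom on the recovered reads also called 0 genes. Mtor measured 6.79, 7.09 and 6.57 FPKM in VO RV against 9.70, 8.41 and 8.42 in sham RV, with every VO library below. Its log2 fold change was −0.35 (standard error 0.11), the unadjusted p was 0.00688 and the adjusted p 0.542, both from limma. Rptor measured 7.11, 6.68 and 6.78 FPKM in VO RV and at least 7.76 in sham RV, with a log2 fold change of −0.22 (−0.14 with the gene length trend removed) and an adjusted p of 0.579 from limma. These were the 2 of 8 members without overlap, both with VO below, where 12.5% of tested genes did not overlap and 6.87% had VO below. Proliferation markers (7 of 7 in the table) summed to 124 to 142 FPKM in VO RV and 102 to 112 in sham RV, and their part in these values was not tested.

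Akt2 in VO RV was uneven, at 62.4, 57.9 and 42.7 FPKM. Replicate 3 alone lay far below the sham RV libraries, replicate 1 lay among them, and the log2 fold change was −0.23 (interval −0.56 to 0.10), which became −0.067 without replicate 3. Akt1, Tsc1, Tsc2, Pik3ca and Rictor overlapped between the groups, with log2 fold changes from −0.11 to 0.03. The median log2 fold change over the 8 members was −0.11, against 0.00 over all tested genes.

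Between the overloaded ventricles, all 8 members had a log2 difference above 0, from 0.01 to 0.42, and none was a DEG. A single gene of the 13910 was a DEG there (0.00719%), and 48 were without VO RV replicate 1. Akt2 averaged 72.1 ± 5.03 FPKM (SD, n = 3) in VO LV and 54.3 ± 10.3 in VO RV, a log2 difference of 0.42 with an adjusted p of 0.344 from limma, and it alone of the 8 passed the unadjusted p with the fold threshold (7.4% of tested genes). Without VO RV replicate 3 its difference was 0.26 with an unadjusted p of 0.0791 from limma, and it no longer passed. Rptor (0.27) and Mtor (0.22) were also higher in every VO LV library than in any VO RV library. These 3 members did not overlap, with VO LV above, against 16.1% of tested genes in either direction and 8.45% with VO LV above. The order of the ventricles was therefore turned for these genes: LV below RV in sham libraries and LV above RV in VO libraries. Of the marker lists, 3 did not overlap between the VO ventricles. The skeletal muscle list was higher in VO LV (3697 to 4372 against 2186 to 3045 FPKM), as was the liver list (17.5 to 19.2 against 13.0 to 17.2), and epicardial and mesothelial markers (6 of 6 in the table) were lower (14.8 to 24.1 against 24.9 to 56.8). Their part in these values was not tested.

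The LV and RV responses to VO differed for Akt2, Rptor and Mtor by the test of the difference itself. For Akt2 the response of the LV exceeded that of the RV by 1.04 on the log2 scale (standard error 0.21, interval 0.58 to 1.5), with an adjusted p of 0.0319 from limma. For Rptor the difference was 0.68 (standard error 0.13, adjusted p = 0.0312 from limma) and for Mtor 0.60 (standard error 0.15, adjusted p = 0.0481). Thus 3 of 8 members were called, all with the higher response in the LV, where 4.19% of tested genes were called and 3.46% in that direction. The 583 genes behind that share became 0 in limma without sham LV replicate 1 or 2, sham RV replicate 1, or VO LV replicate 2 or 3 (2382 to 3177 genes at the unadjusted p with the fold threshold). They became 4 without sham RV replicate 2, 238 when VO LV replicate 1 was omitted and 115 when VO RV replicate 3 was, but 1003 and 912 without VO RV replicates 1 and 2, respectively. Tsc1 had a difference of 0.42 with an unadjusted p of 0.0460 and an adjusted p of 0.187 from limma, which made 4 of 8 members at the unadjusted p with the fold threshold (23.1% of tested genes). Akt1 had 0.26 (interval −0.05 to 0.56), Pik3ca 0.05 (−0.24 to 0.34), Rictor −0.01 (−0.50 to 0.48) and Tsc2 −0.06 (−0.35 to 0.23). None of these 4 intervals reached the 3 called values.

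The median difference of responses was 0.34 for the 8 members and −0.04 over all tested genes. The difference is made of the 4 group means, so the sham contrast between ventricles forms part of it. Its parts were log2 fold changes of 0.81 in the LV and −0.23 in the RV for Akt2, 0.45 and −0.22 for Rptor, and 0.26 and −0.35 for Mtor, none of which was called on its own.

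The calls for Akt2 and Rptor were each lost without sham LV replicate 1 or 2, sham RV replicate 1 or 2, VO LV replicate 2 or 3, or VO RV replicate 3, with the highest adjusted p values from limma at 0.0944 and 0.0910, both without VO LV replicate 3. The Mtor call held without sham LV replicate 3 or without VO RV replicate 2 and was lost without any one of the other 10 libraries. Without both atrial-high RV libraries the differences of Akt2, Rptor and Mtor were 1.09, 0.69 and 0.57, with adjusted p values of 0.0785, 0.0771 and 0.102 from limma. With the gene length trend removed, Akt2 stayed at 1.04 (adjusted p = 0.0365), while Rptor came to 0.51 (0.0724) and Mtor to 0.41 (0.0989). The Mtor call was also lost with the Y-linked covariate (0.59, adjusted p = 0.0772 from limma) and with quantile normalization (0.55, adjusted p = 0.0523).

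**Figure D3:**
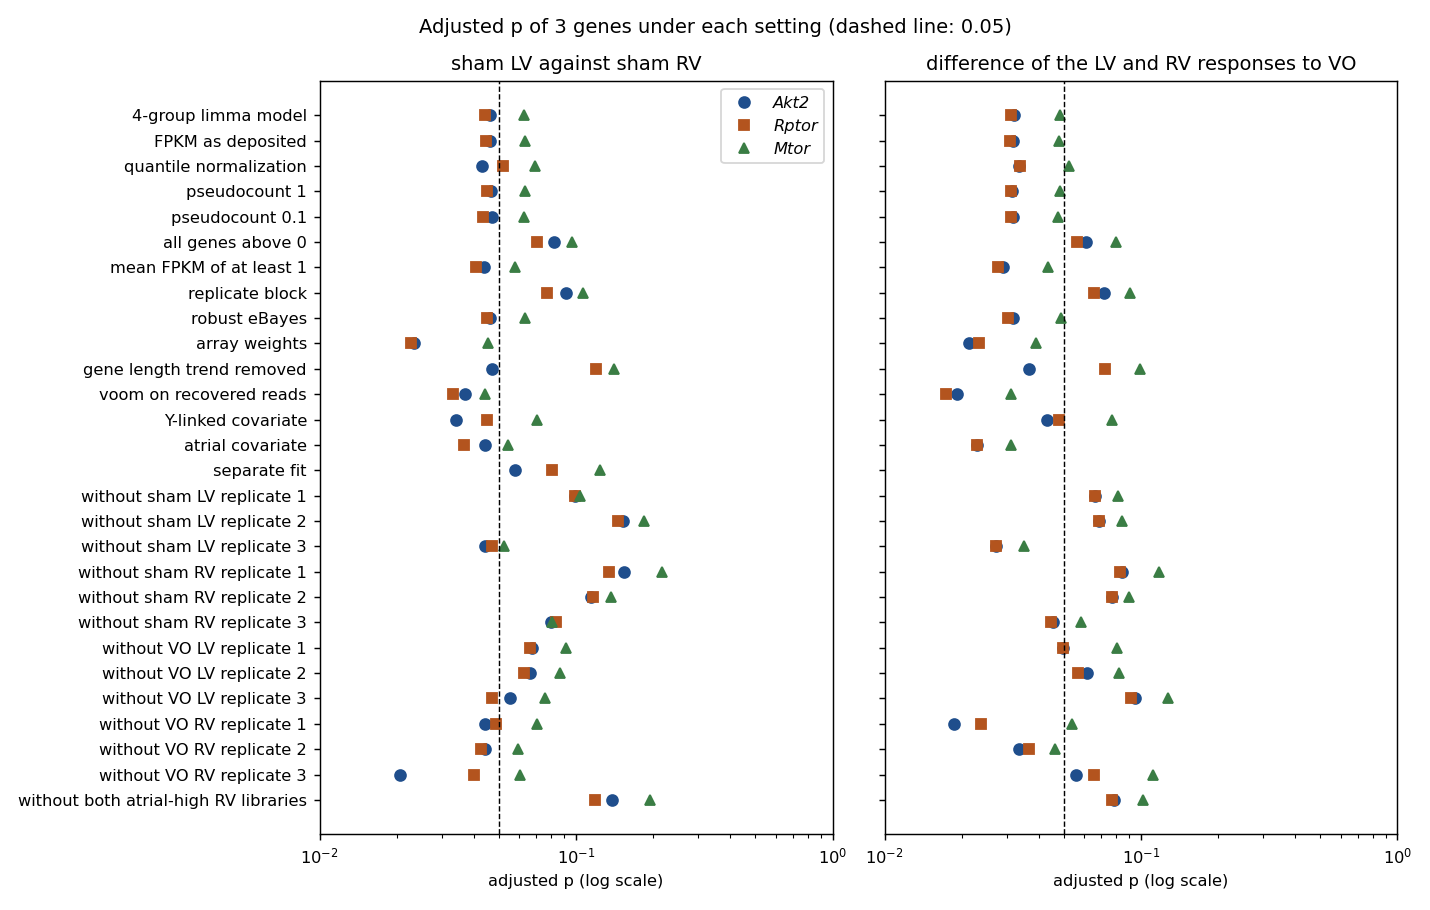
Adjusted p of Akt2 (circles), Rptor (squares) and Mtor (triangles) from limma (horizontal axes, log scale, dashed line at 0.05) under each setting and with libraries left out (vertical axis), for sham LV against sham RV and for the difference of responses. Points lie on both sides of the line, up to 0.154 for Akt2 and 0.216 for Mtor between the sham ventricles, and a separate fit gives no point for the difference of responses.

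Ratios within a library set partners side by side and do not depend on library size. Akt1 exceeded Akt2 by 3.92, 4.32 and 3.43 times in sham LV and by 2.56, 3.07 and 2.95 times in sham RV. In VO LV the ratio was 2.57, 2.39 and 2.35, below every sham LV library and below the 2.93, 2.58 and 3.96 of VO RV, whose replicate 2 lay at nearly the same value as VO LV replicate 1. By geometric means of the groups the ratio was smallest in VO LV (2.43), although sham RV replicate 1 lay just below VO LV replicate 1. In VO LV, Akt2 stood 0.81 and Akt1 0.15 above sham LV on the log2 scale.

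Tsc2 exceeded Tsc1 by a geometric mean of 2.80 times in sham LV and 2.12 times in VO LV, and by 2.28 and 2.49 times in the RV of sham and VO rats. The sham LV libraries (2.73 to 2.91) lay above all sham RV (1.79 to 2.64) and all VO LV libraries (1.98 to 2.30). Rptor exceeded Rictor by 1.73 times in sham LV and 2.65 times in VO LV, and by 2.36 and 2.18 times in the RV of sham and VO rats. Sham LV libraries (1.49 to 1.94) lay below all sham RV (1.96 to 3.06) and all VO LV libraries (2.58 to 2.74).

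The 3 ratios did not overlap between the sham ventricles or between VO LV and sham LV, and Akt1/Akt2 also did not overlap between VO LV and VO RV. Each of these 7 comparisons had an exact permutation p of 0.10, two-sided, the smallest possible, and an adjusted p of 0.171 over the 12 exact tests. For VO RV against sham RV all 3 ratios overlapped, with exact p of 0.60 to 0.70.

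**Figure D4:**
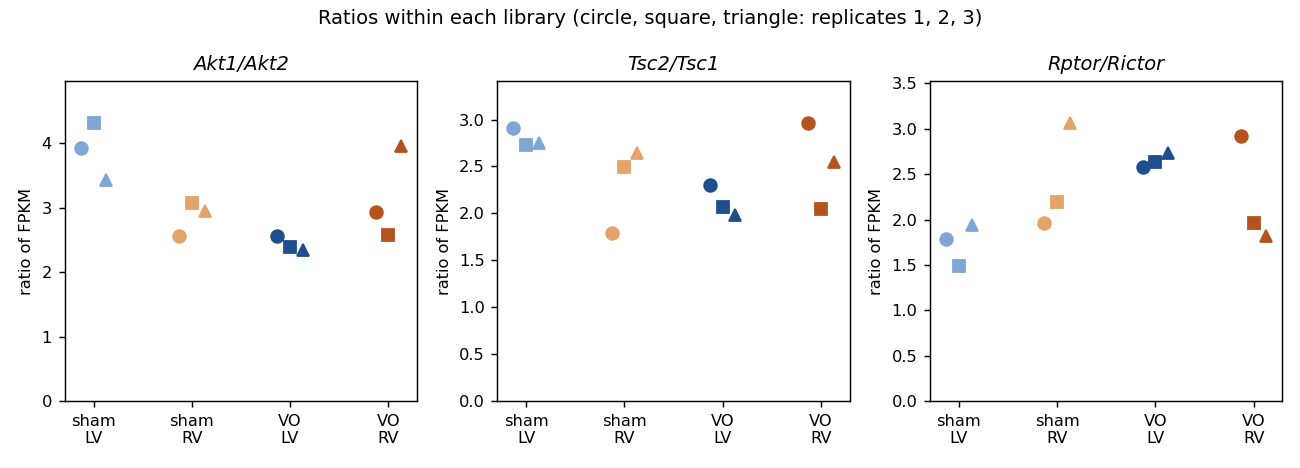
Ratios of FPKM within each library (vertical axes, linear from 0) for Akt1/Akt2, Tsc2/Tsc1 and Rptor/Rictor, by group (horizontal axis); each symbol is 1 library and its shape the replicate number. In each panel the 3 sham LV symbols are apart from the 3 VO LV symbols, at 3.43 to 4.32 against 2.35 to 2.57 for Akt1/Akt2.

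Across the 12 libraries, Akt2 and Rptor had the most similar profiles of any member pair, with Pearson's r of 0.914 (Spearman's rho 0.895) on log2 values. Mtor and Rptor had r = 0.769, Akt1 and Rptor r = 0.764 (rho 0.811) and Akt2 and Mtor r = 0.763. Akt1 and Rictor ran opposite, at r = −0.508. These are descriptions over 12 libraries that fall into the 4 groups and share their depth and composition. The genes most like Akt2 were Opa3 (r = 0.985), Armc2 (0.979) and AABR07044596.1 (0.976). For Rptor they were Gtpbp1 (0.968), Slc25a12 (0.953), a mitochondrial aspartate–glutamate carrier, and Myh6 (0.944), the alpha myosin heavy chain of heart muscle. For Mtor they were Zfp445 (0.957), AABR07002969.1 (0.954) and Eif4enif1 (0.942), and for Akt1 LOC100362432 (0.970), Tmem38a (0.958) and Dfnb31 (0.953). Tsc1 was closest to Mlxip (0.937), Tsc2 to Vipas39 (0.912), Pik3ca to Tpi1 (0.923) and Rictor to Kmt2a (0.910), the lowest of these leading values.

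The rest of the route was read from a list of 139 genes in 10 roles, of which 134 were in the table and 127 were tested. Between the sham ventricles, 10 of the 127 were DEGs (3.85% of tested genes), 8 of them lower in the LV (2.35%), and 25 were lower and 8 higher at the unadjusted p with the fold threshold (9.63% and 8.19% of tested genes). In VO LV against sham LV, 2 were DEGs (0.0935% of tested genes), and 24 were higher and 4 lower at the unadjusted p (9.27% and 6.44%). In the RV, VO gave no DEG, and 10 were lower and none higher at the unadjusted p (3.06% and 1.85%). Between VO LV and VO RV, 12 were higher and none lower at the unadjusted p (3.85% and 3.56%). For the difference of responses, 10 of 127 were called (4.19% of tested genes), all higher in the LV (3.46%), and 36 were higher and 4 lower at the unadjusted p (13.1% and 9.94%). Each of these calls was lost without some single library. None of the 10 calls between the sham ventricles held without sham LV replicate 1 or 2, sham RV replicate 1 or 2, or VO LV replicate 2, and 5 to 8 held without any one of sham LV replicate 3, sham RV replicate 3, VO LV replicate 1, VO LV replicate 3 and VO RV replicate 1. None of the 10 in the difference of responses held without sham LV replicate 1 or 2, sham RV replicate 1 or 2, or VO LV replicate 2 or 3, 5 held when VO LV replicate 1 was omitted, 4 when VO RV replicate 3 was, and 9 or 10 for each of the other 4 libraries. The signs were kept in all these fits. The median log2 value of the list was −0.07, 0.10, −0.09, 0.09 and 0.18 in these 5 comparisons, in this order.

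At the upstream end, 7 of 10 tested receptors and adaptors were below the RV in the sham LV (9.63% of tested genes), and 7 of 10 were above sham LV in VO LV (9.27%), at the unadjusted p with the fold threshold. Insr, the insulin receptor, was lower in sham LV with 5.65 ± 0.693 FPKM (SD, n = 3) against 10.8 ± 1.37 in sham RV (log2 fold change −0.88, adjusted p = 0.0319 from limma). In VO LV it measured 10.6 ± 1.92 FPKM (0.85, adjusted p = 0.0514). Irs2, an insulin receptor substrate, rose from 5.41 ± 1.69 FPKM in sham LV to 20.1 ± 5.56 in VO LV (log2 fold change 1.81, adjusted p = 0.0496 from limma). This call held in 3 of 12 fits with 1 library left out, those without sham LV replicate 3, VO RV replicate 1 or VO RV replicate 3. The adjusted p from limma reached 0.249 without VO LV replicate 3, and it was 0.267 with the Y-linked covariate. Its relative Irs1 was lower in the LV of sham rats (−0.85, adjusted p = 0.0459).

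Between the receptors and Akt, DEGs between the sham ventricles were 1 of 12 and 1 of 13 genes in the roles named below. Of all tested genes, 3.85% were DEGs there. Among 12 other PI3K subunits and lipid kinases, Pik3r6, a regulatory subunit of the gamma form, was higher in the LV of sham rats (0.78, adjusted p = 0.0350 from limma). Pdpk1, the kinase that phosphorylates Akt, measured 4.49 FPKM in sham LV and 6.77 in VO LV, with 6.78 and 4.90 in the RV of sham and VO rats, and gave no call (adjusted p at least 0.0636). Among 13 phosphatases and Akt inhibitors, Inppl1, a lipid phosphatase that acts on the PI3K product, was lower in sham LV (−0.68, adjusted p = 0.0319). It was also called in the difference of responses (1.02, adjusted p = 0.0249 from limma), where 4.19% of tested genes were. Insr, Rragd and the kinase Prkca were called there too. With 1 library left out, these calls held in 6 of 12 fits for Inppl1 and Insr and in 4 for Rragd and Prkca.

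The energy sensor subunit Prkaa2 had the largest log2 fold change of the list between the sham ventricles (−2.28, adjusted p = 0.0332 from limma) and measured 2.52 FPKM in sham LV and 15.1 in VO LV, with 14.6 and 6.05 in the RV of sham and VO rats. Its difference between VO LV and sham LV was not called (adjusted p = 0.0519 from limma). In the difference of responses Prkaa2 had the largest value of the list, 3.58, and was called, where 4.19% of tested genes were. That call held in 6 of 12 fits with 1 library left out. Rheb, the GTPase between the TSC complex and mTOR, measured 67.5 to 75.6 FPKM over the group means and gave no call. Rragd, a Rag GTPase that carries the amino acid signal to mTORC1, was lower in the LV of sham rats (−0.63, adjusted p = 0.0432).

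Of 9 other subunits of the mTOR complexes, none was called in limma in the 5 comparisons. None passed the unadjusted p with the fold threshold in the 4 comparisons of groups, where 4.91% to 17.8% of tested genes did, so that few of 9 would pass at those shares. In the difference of responses (23.1% of tested genes) 1 of the 9 did, Tti1, which helps to assemble mTOR and related kinases (0.46, unadjusted p = 0.0172, adjusted p = 0.120 from limma). Mlst8, shared by both complexes, had 4.26 to 4.81 FPKM as group means, and Akt1s1, an inhibitory mTORC1 subunit, 41.5 to 44.4. Of the 21 genes of amino acid and lysosome input, 0 were called in limma in the 5 comparisons (0.0% to 4.19% of tested genes), and between 0 and 2 passed the unadjusted p with the fold threshold (4.91% to 23.1%).

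Of 23 tested mTORC1 targets, 3 were DEGs between the sham ventricles, each lower in the LV, where 2.35% of tested genes were lower DEGs. They were Lpin1, a phosphatidate phosphatase (−1.15, adjusted p = 0.0319 from limma), Eif4ebp2, a repressor of translation initiation (−0.96, 0.0432), and Eif4g1, a translation initiation scaffold (−0.89, 0.0467). Lpin1 rose in VO LV, from 3.11 to 8.38 FPKM (1.3, adjusted p = 0.0498 from limma). That call held in the same 3 fits as that of Irs2 and without VO RV replicate 2, and was lost without any one of the other 8 libraries and with the Y-linked covariate (0.267). In the difference of responses, Lpin1, Eif4ebp2, Eif4g1 and Atg13, an autophagy initiation subunit, were called, at 1.72, 1.52, 1.3 and 0.91. Of all tested genes 4.19% were called there, and 3.46% in that direction. These calls held in 6, 5, 4 and 4 of 12 fits with 1 library left out. Rps6kb1, the S6 kinase, measured 11.5 FPKM in sham LV and 13.7 in VO LV and gave no call (adjusted p = 0.253 from limma).

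Of 14 Akt targets, Gys1, the muscle glycogen synthase, alone was called, in the difference of responses (1.05, adjusted p = 0.0461 from limma), where 4.19% of tested genes were. Foxo3, a transcription factor that Akt keeps out of the nucleus, measured 3.22 FPKM in sham LV and 7.05 in VO LV, with 6.60 and 5.34 in the RV of sham and VO rats. Its log2 fold changes were −0.92 between the sham ventricles and 1.03 in VO LV against sham LV, with adjusted p values of 0.0725 and 0.0727 from limma. In the RV under VO, the genes of the list with the smallest p were Inppl1 (−0.44), Pik3ip1 (−0.48), an inhibitor of PI3K, and Inpp4a (−0.42), each with an adjusted p of 0.535 from limma. Between VO LV and VO RV they were Ulk1 (0.54), the kinase that starts autophagy, and Ddit4 (0.42), a stress-induced inhibitor of mTORC1, with adjusted p values of 0.257 and 0.281.

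**Figure D5:**
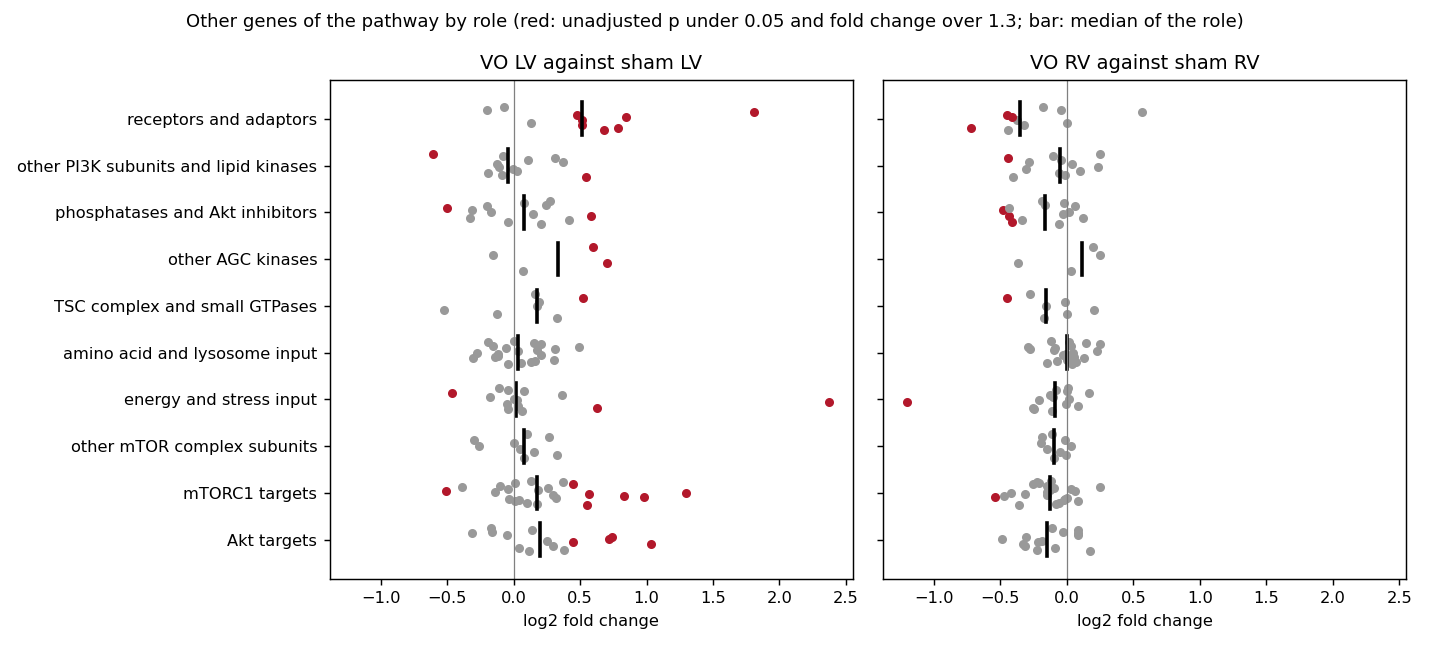
Log2 fold changes from limma (horizontal axes) of the tested genes of each role of the route (vertical axis) in VO LV against sham LV and in VO RV against sham RV; each point is 1 gene, red where the unadjusted p was under 0.05 and the fold change over 1.3, and the bar is the median of the role (points are spread vertically for legibility only). For receptors and adaptors the median is 0.52 in the LV and −0.35 in the RV, and for amino acid and lysosome input it is 0.03 and 0.00.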

How the data were processed

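Total RNA of the ventricular free walls was made into poly-T selected NEBNext libraries and sequenced in pairs on an Illumina Novaseq. The authors removed poor reads, aligned with HISAT2 2.0.5, counted per gene with featureCounts 1.5.0-p3 and deposited FPKM (the submitters' processing notes also name StringTie 1.3.3b, DESeq2 1.20.0 and GATK 3.7). Genome build, annotation release and strand setting are not given in the sources used here. FPKM times gene length fell on whole reads (100% of values under 200 reads, tolerance 0.02), which gave 14121713 to 16871371 reads on genes per library.

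Values were rescaled by median-ratio size factors (0.996 to 1.00) and taken to log2(FPKM + 0.5), so fold changes of low genes are understated. The 13910 genes averaging 0.5 FPKM or more were tested with limma 3.58.1 (lmFit, contrasts.fit, eBayes with trend; R 4.3.3) in 1 model of the 4 groups, without covariates. P values were adjusted by Benjamini-Hochberg over all tested genes, and the thresholds for DEGs were the study's (0.05 for the adjusted p, 1.3 for the fold change). The fit was tested on simulated data. Single members and ratios were compared by exact two-sided permutation tests (scipy 1.17.1), which cannot go below 0.10 here. DESeq2 was not run.

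The members, the gene lists and the rule for naming genes were chosen with earlier results of these data known. All members are named with their values. From the list of the route, up to 8 genes with the smallest p per comparison were eligible, and components outside that rule (Pdpk1, Rheb, Mlst8, Akt1s1, Rps6kb1, Foxo3, Eif4g1, Tti1) were named after their values were seen. Alternatives were other normalizations, pseudocounts, filters and variance models, voom on recovered reads, covariates for Y-linked and atrial genes, removal of the gene-length trend (lowess, span 0.3), separate fits, the replicate number as a block, and each library left out. Leaving out both atrial-high RV libraries was added after the data were seen. Promoters came from RefSeq (GRCr8) and were not combined with positions of the deposited table. Some genes of the list are not reported here.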

Additional observations from a re-analysis of the deposited data

Results flagged for a closer look

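The response of the LV to VO differed from that of the RV, by the test of the difference itself in limma, for Akt2 (1.04 on the log2 scale, adjusted p = 0.0319), Rptor (0.68, adjusted p = 0.0312) and Mtor (0.60, adjusted p = 0.0481). For Akt2, Rptor and Mtor all 3 VO LV libraries lay above all 3 sham LV libraries, and for Rptor and Mtor all 3 VO RV libraries lay below all 3 sham RV libraries. No test for a value that stands apart within its group was made, since each group holds 3 libraries.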

How the results depend on the processing

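Akt2, Rptor and Mtor kept their direction between the sham ventricles, in VO LV against sham LV and in the difference of responses under every alternative, while calls came and went. Between the sham ventricles, where 2 members were called, 3 were called with voom, 1 with quantile normalization, with a pseudocount of 1 and with the gene length trend removed, and 0 with all genes above 0, with separate fits and without both atrial-high RV libraries; with 1 library left out the number was 0 to 2. In VO LV against sham LV, where 0 were called, it was 1 with a pseudocount of 0.1 and 2 with a mean FPKM of at least 1, array weights, voom or the atrial covariate, and 0 to 2 with 1 library left out. Of the 3 members called in the difference of responses, 2 were called with the Y-linked covariate or quantile normalization, 1 with the length trend removed and 0 with all genes above 0 or without both atrial-high libraries, and 0 to 3 with 1 library left out; separate fits give no value there. The filter to all genes above 0 tests more genes; the cause of the other moves was not tested.

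The correlation of same-numbered deviations was −0.283 to 0.123 over 18 pairs, and 4 of 18 correlated best with their own number. Most of these pairs set sham against VO libraries, which come from different rats. Between sham LV and sham RV the values were 0.045, 0.038 and 0.123, and between VO LV and VO RV 0.054, −0.051 and −0.218. Y-linked sums were alike by number in the sham ventricles, but at number 3 they were 0.296 FPKM in VO LV and 56.1 in VO RV. Whether sham libraries of 1 number share a rat cannot be told from these values. With the replicate number as a block, 0 members were called between the sham ventricles and 0 in the difference of responses, and the block left 3, 3 and 1 genes of all those tested in the 3 comparisons below and no call of the pathway list.

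Over all genes, 536 were called between the sham ventricles, 13 in VO LV against sham LV and 583 in the difference. In this order the numbers were 1321, 704 and 1045 with array weights, 844, 336 and 1286 with the atrial covariate, 8, 5 and 21 with all genes above 0, and 9, 2 and 2 without both atrial-high libraries. Separate fits gave 314 and 119 in the first and second. In VO LV against sham LV it was 339 with voom, 183 with a mean FPKM of at least 1, 56 with a pseudocount of 0.1, 5 with the length trend removed and 0 in limma with the Y-linked covariate (1332 at the unadjusted p), which gave 203 in the difference.

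Signs turned for small values that passed no threshold, and the cause was not tested. Array weights gave −0.048 for Pik3ca and −0.0446 for Rictor between the sham ventricles, −0.0178 for Pik3ca in VO RV and 0.0595 for Rictor in the difference of responses. The Y-linked covariate gave 0.00927 for Tsc2 and 0.049 for Rictor in VO LV against sham LV and 0.0645 for Rictor in the difference. The atrial covariate gave −0.0179 for Tsc2 between the VO ventricles and 0.0105 for Rictor in the difference. Between the VO ventricles, leaving out both atrial-high libraries gave −0.00406 for Akt1 and −0.042 for Tsc2, quantile normalization −0.000779 for Tsc2, the length trend −0.0251 for Tsc2 and −0.031 for Rictor, and voom −0.00257 for Rictor. The length trend also gave −0.105 for Pik3ca in the difference.

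With 1 library left out, log2 values ranged as follows. Between the sham ventricles, Pik3ca ran from −0.067 to 0.0657 and Rictor from −0.109 to 0.106. In VO RV, Pik3ca ran from −0.0407 to 0.0913, Tsc1 from −0.188 to 0.0179, Tsc2 from −0.0517 to 0.0727 and Rictor from −0.23 to 0.0508. Between the VO ventricles, Akt1 ran from −0.00406 to 0.14, Tsc2 from −0.042 to 0.0824 and Rictor from −0.15 to 0.114. In the difference, Pik3ca ran from −0.0124 to 0.12, Tsc2 from −0.118 to 0.00592 and Rictor from −0.165 to 0.116. Of all member log2 values under alternatives, 994 kept their direction and side of the threshold, 63 no longer passed the threshold, 15 newly passed it and 40 changed sign. Rictor and Tsc1 had the fewest reads, 199 to 359 per library, and counting error reached 7.09% of a value there.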
